A study of Mus musculus with 2 samples.

Results

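The genes described here are 10 genes of arterial identity and Notch signalling (Sox17, Gja4, Gja5, Hey1, Dll4, Jag1, Notch1, Notch3, Notch4 and Bmx), chosen by symbol from the 32285 genes listed in both libraries, and all 10 had counts. They were measured by droplet sequencing of single nuclei from frozen mesenteric perivascular fat, the adipose tissue around the arteries of the gut, in mice of 11 weeks. The first library, called Prdm16 cKO here, is labelled with floxed Prdm16 and with a Cre spelled AdopiQCre+. The Adipoq promoter acts in adipocytes, so the deletion is aimed at fat cells and not at the vessel cells described below. The second library, the flox control, carried the floxed Prdm16 alleles with no Cre named. There was 1 library per genotype, how many mice went into a library is not given, and the series title names thoracic and abdominal fat where the sample labels name mesenteric fat.

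Notch signalling passes between touching cells. A ligand on one cell, such as Dll4 or Jag1, binds a Notch receptor on its neighbour, the receptor is cut by ADAM proteases and by gamma-secretase, and its inner part joins the DNA-binding protein RBPJ and Mastermind coactivators to switch on targets of the Hes and Hey families. In blood vessels this route helps to set and keep arterial identity, together with SOX17 and its relatives. Between endothelium and the wall, Jag1 and Notch3 are a well known pair, with Notch3 carried by pericytes and smooth muscle cells. Gja4 and Gja5 encode connexins that join arterial endothelial cells through gap junctions, and Bmx encodes a tyrosine kinase known from arterial endothelium and the endocardium. Prdm16 encodes a zinc finger transcription regulator known for its part in brown and beige fat, and it is also known from arterial endothelium.

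After filtering, 7374 nuclei remained in the Prdm16 cKO library and 10532 in the flox control library, with medians of 6521.5 and 7035 unique molecular identifiers (UMIs, each a counted RNA molecule) per nucleus. Joint clustering without the 10 genes, Prdm16 or the other listed Notch and arterial genes placed 288 nuclei (Prdm16 cKO) and 440 (flox control) in a vascular endothelial-like class, 45 and 74 in a pericyte-like class and 34 and 65 in a smooth muscle-like class. All 13 vascular endothelial markers were at least 2 times higher in the vascular endothelial-like class than in the other nuclei of both libraries, and the pericyte-like and smooth muscle-like clusters held 8 of 9 and 9 of 9 of their markers. Levels are given as CPM (the UMIs of a gene scaled to the total UMIs of its class), with 95% intervals that cover counting error only. Adipocyte markers were also counted in these nuclei. Summed over the vascular endothelial-like class, they stood at 41.3% of their adipocyte-like level in the Prdm16 cKO library and at 26.1% in the flox control library. Whether these counts came from free adipocyte RNA in the droplets was not tested. Prdm16 itself was at 22.5 CPM in Prdm16 cKO adipocyte-like nuclei and 16.5 CPM in flox control adipocyte-like nuclei, so the counts did not show the deletion. Whether the counts cover the floxed exon is not known, and the cause was not tested.

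Of the 10 genes, 8 have an entry in the RefSeq promoter table of GRCm38.p6, and Sox17 and Hey1 are named only. The promoters of Gja5, Bmx and Jag1 are shown because these genes had the lowest adjusted p of the 10 in the comparison by Prdm16 UMI below. Each runs 5′ to 3′ on the strand of the gene, with 250 bases before the annotated start and 50 after it. Capitals mark the letters TGGGAA (the RBPJ core) or ACAAT (the SOX core) on either strand, which a search of all 32851 promoters of the table found in 25.6% and 31.0% of them, and no match of one overlapped the other here.
Gja5, chr3:97032152-97032451, plus strand: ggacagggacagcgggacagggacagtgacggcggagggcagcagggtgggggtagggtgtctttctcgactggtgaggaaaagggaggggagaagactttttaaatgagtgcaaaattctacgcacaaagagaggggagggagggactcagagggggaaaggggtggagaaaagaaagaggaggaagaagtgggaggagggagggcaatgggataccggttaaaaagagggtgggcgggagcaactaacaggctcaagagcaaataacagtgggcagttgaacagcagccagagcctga
Bmx, chrX:164258144-164258443, minus strand: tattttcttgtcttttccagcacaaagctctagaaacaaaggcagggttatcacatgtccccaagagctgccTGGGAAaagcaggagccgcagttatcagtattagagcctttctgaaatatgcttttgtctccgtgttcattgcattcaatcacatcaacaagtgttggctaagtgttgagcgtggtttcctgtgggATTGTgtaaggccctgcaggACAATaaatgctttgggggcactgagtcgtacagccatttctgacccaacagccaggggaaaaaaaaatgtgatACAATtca
Jag1, chr2:137116471-137116770, minus strand: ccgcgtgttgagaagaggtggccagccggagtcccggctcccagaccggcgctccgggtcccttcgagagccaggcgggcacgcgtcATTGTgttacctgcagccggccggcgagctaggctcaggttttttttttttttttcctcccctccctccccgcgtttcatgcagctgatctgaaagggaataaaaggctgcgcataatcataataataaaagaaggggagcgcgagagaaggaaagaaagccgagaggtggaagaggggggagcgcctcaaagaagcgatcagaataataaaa
The Bmx promoter held 1 RBPJ core and 3 SOX cores, the Jag1 promoter held 1 SOX core, and the Gja5 window held neither. Gja4 and Notch4 each held 1 SOX core, and Dll4, Notch1 and Notch3 held neither. A match in these letters is a description and does not show binding. In the GENCODE M21 annotation on the same assembly, Gja5 spans bases 96904693 to 97077416 of chromosome 3, Bmx bases 164192842 to 164258193 of chromosome X, Jag1 bases 137081456 to 137116644 of chromosome 2 and Sox17 bases 4490931 to 4497354 of chromosome 1. Gja5, Sox17, Dll4, Notch1 and Notch3 overlap genes on the other strand, and how strand was handled is not given. Over both libraries, those partners of Gja5 had 123 UMIs in the vascular endothelial-like class and those of Sox17 had 30. Those of Notch3, Dll4 and Notch1 had 41, 22 and 21, where Notch3 itself had only 16 UMIs (Prdm16 cKO) and 24 UMIs (flox control).

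Vascular endothelial-like nuclei carried 9 of the 10 genes at 2 times or more the level of the nuclei outside the endothelial-like and mural classes in both libraries, where 7.7% of 19725 genes did so. The exception was the ligand Jag1, at 141 CPM in Prdm16 cKO and 207 CPM in flox control vascular endothelial-like nuclei, against 89.3 and 90.1 CPM in the other nuclei of those libraries. Adipocyte-like nuclei themselves carried Jag1 at 102 CPM (Prdm16 cKO) and 107 CPM (flox control). Notch3 was among the 9 at only 2.21 times (1.24 to 3.66) in the Prdm16 cKO library and 2.11 times (1.33 to 3.18) in the flox control library. Most of those Notch3 UMIs came from 1 nucleus in each library, as given below. The ligand Dll4, the main endothelial Delta-like ligand, was at 30.2 and 28.6 CPM in vascular endothelial-like nuclei of the Prdm16 cKO and flox control libraries, against 0.928 and 1.02 CPM in the other nuclei. Dll4 was also present in lymphatic endothelial-like nuclei, at 23.8 and 28.4 CPM, whereas Jag1 had UMIs in every class of both libraries.

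Among the receptors, Notch4 and Notch3 were highest in different cells of the vessel. Notch4, a receptor of endothelium, stood at 31.3 CPM (Prdm16 cKO) and 54.3 CPM (flox control) in vascular endothelial-like nuclei, against 1.20 and 1.57 CPM in the other nuclei. Notch1 was at 82.3 and 82.9 CPM there, 3.38 times and 3.30 times the other nuclei, and it was higher still in lymphatic endothelial-like nuclei, at 109 CPM (Prdm16 cKO) and 114 CPM (flox control). Notch3 reached 853 CPM (Prdm16 cKO) and 1322 CPM (flox control) in pericyte-like nuclei. In smooth muscle-like nuclei Notch3 was at 614 and 397 CPM, against 8.78 and 8.80 CPM in vascular endothelial-like nuclei. After every nucleus was thinned to 1000 UMIs, 65.1% of Prdm16 cKO and 68.9% of flox control pericyte-like nuclei still held a Notch3 UMI, against 0.275% and 0.138% of adipocyte-like nuclei, which serve as the background. The endothelial Notch3 counts were few and clumped: 10 of 16 UMIs in the Prdm16 cKO library and 15 of 24 in the flox control library came from 1 nucleus each.

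Sox17, Gja5 and Bmx had their highest levels among the named classes in vascular endothelial-like nuclei of both libraries. Sox17, the arterial transcription factor, was at 57.1 CPM (Prdm16 cKO) and 72.6 CPM (flox control) in vascular endothelial-like nuclei and at 0.911 and 0.852 CPM in the other nuclei. Bmx was at 218 and 285 CPM in vascular endothelial-like nuclei, against 4.82 and 8.08 CPM in the other nuclei. Those other nuclei include a cluster without a class name, cluster 19, where Bmx was higher still (236 and 388 CPM). Gja5 was at 43.3 and 100.1 CPM in vascular endothelial-like nuclei, against 1.16 and 1.602 CPM in the other nuclei. Lymphatic endothelial-like nuclei shared Bmx (137 and 132 CPM), Dll4, Notch1 and Hey1 but had at most 1 UMI of Sox17 and of Gja4 in a library and at most 3 of Gja5. Hey1, the Notch target, was at 9.33 and 12.8 CPM in vascular endothelial-like nuclei and at 16.8 and 8.13 CPM in lymphatic endothelial-like nuclei, on 10 to 35 UMIs. Gja4 rested on 8 and 20 UMIs in the vascular endothelial-like class, so its level was known only within 1.89 to 8.65 CPM (Prdm16 cKO) and 4.48 to 11.3 CPM (flox control). That level was 4.39 CPM (Prdm16 cKO) and 7.34 CPM (flox control), against 4.36 and 16.9 CPM in pericyte-like and smooth muscle-like nuclei together.

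**Figure D1:**
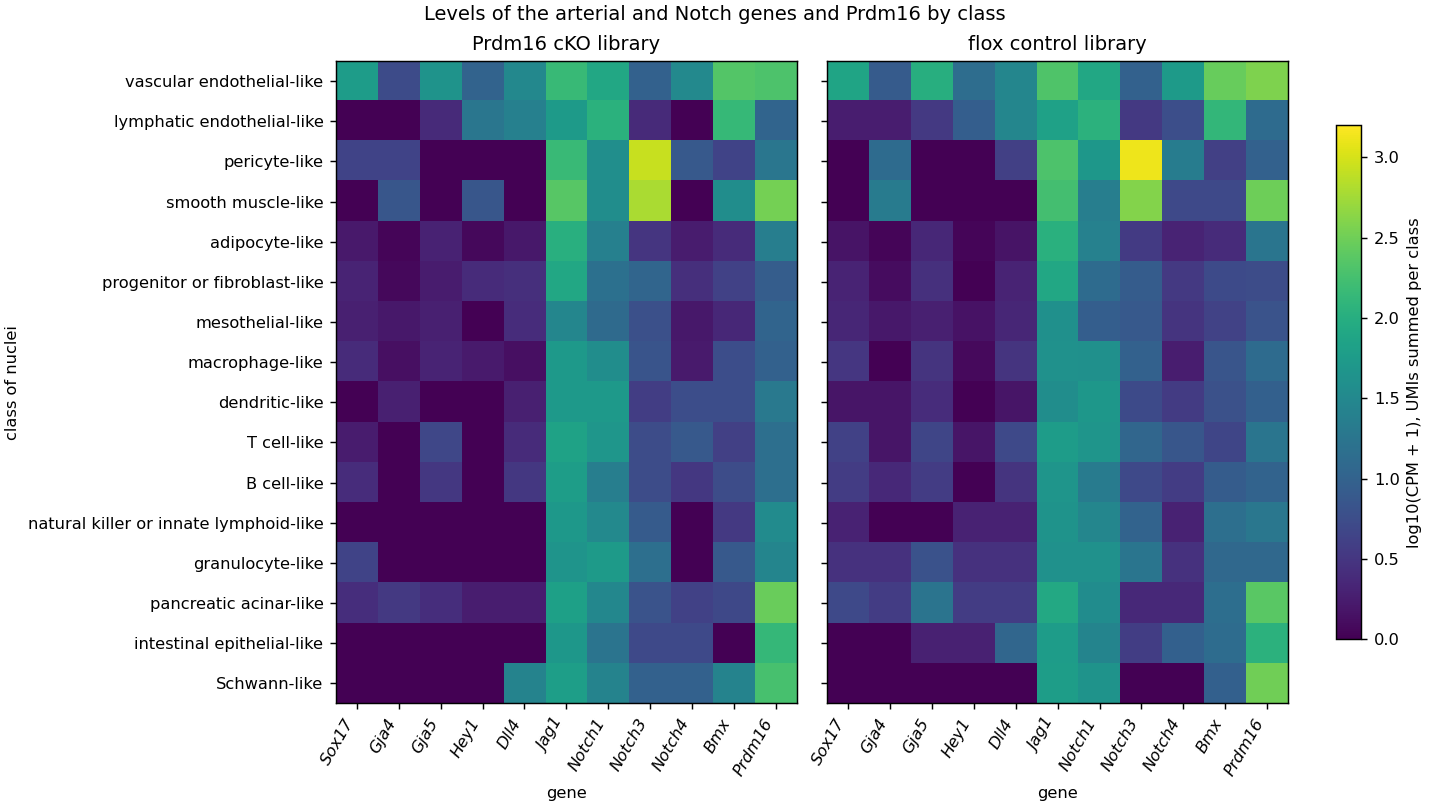
Levels of the 10 genes and Prdm16 in 16 classes of nuclei (rows), in the Prdm16 cKO library (left) and the flox control library (right), as log10(CPM + 1) of UMIs summed per class. Notch3 is brightest in pericyte-like and smooth muscle-like nuclei, Sox17, Gja5, Notch4 and Bmx in vascular endothelial-like nuclei, and Jag1 and Notch1 have colour in every row.

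In pericyte-like and smooth muscle-like nuclei summed (mural nuclei, 79 in the Prdm16 cKO library and 139 in the flox control library), 3 of the 10 genes were at 2 times or more the other nuclei in both libraries, where 5.61% of 19668 genes were. They were Notch3, Gja4 and Notch4, but Gja4 and Notch4 had only 2 UMIs each in the Prdm16 cKO mural nuclei. Gja4 had 14 UMIs in flox control mural nuclei, 10 of them in smooth muscle-like nuclei. Notch4 had 9 UMIs in flox control mural nuclei, 7 of them in pericyte-like nuclei, where it was at 20.9 CPM. Jag1 was at 177 CPM (Prdm16 cKO) and 185 CPM (flox control) in mural nuclei, 1.98 times (1.57 to 2.46) and 2.06 times (1.74 to 2.42) the other nuclei. Gja5 had 0 UMIs in the mural nuclei of both libraries, which allows a level of up to 6.54 CPM (Prdm16 cKO) and 3.61 CPM (flox control). Of the other Notch genes, Heyl, a Hey family member known from smooth muscle, was at 58.9 and 49.4 CPM in mural nuclei, Hey2 at 19.6 and 55.4 CPM, and the coactivator Maml3 at 827 and 761 CPM.

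Within the vascular endothelial-like class, 7 of the 10 genes were at 2 times or more in a single small cluster, cluster 21, relative to the rest of the class (clusters 13 and 20) in both libraries, where 3.62% of 11397 genes were. The exceptions were Dll4, Notch1 and Notch3, and Notch3 had 13 of its 16 endothelial UMIs there in the Prdm16 cKO library and 0 of 24 in the flox control library. Cluster 21 held 49 of 288 nuclei in the Prdm16 cKO library (17.0%, exact binomial interval 12.9 to 21.9) and 101 of 440 in the flox control library (23.0%, 19.1 to 27.2), and was named arterial-like from 12 of 19 arterial markers other than the 10 genes, such as Sema3g, Fbln5, Mgp, Hey2 and Eln. It was led by Dkk2, Mannr and Gm33206. Vcam1 of the venous list also passed there, and none of the 8 capillary markers did. Cluster 13 carried 7 of 8 capillary markers and cluster 20 carried 6 of 9 venous markers. Of the same 19 arterial markers, Cxcl12 and Nrp1 passed in cluster 13 and Unc5b in the unnamed cluster 19, and none of these passed in cluster 21. Efnb2, Edn1, Cxcr4 and Sox7 did not pass in cluster 21 either. Neither the 10 genes nor Prdm16 took part in the clustering, but a cluster set against others is a description here and was not tested.

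Gja5 was nearly confined to cluster 21, at 214 CPM (Prdm16 cKO) and 291 CPM (flox control), against 1.37 and 7.09 CPM in clusters 13 and 20 together. Of the Gja5 UMIs of the class, 97.5% lay there in the Prdm16 cKO library and 95.2% in the flox control library. Gja4 followed it, with 8 of 8 UMIs (Prdm16 cKO) and 19 of 20 (flox control) in cluster 21. After thinning to 1000 UMIs, 16.7% of Prdm16 cKO and 23.8% of flox control nuclei of cluster 21 held a Gja5 UMI, against 0.0688% and 0.115% of adipocyte-like nuclei.

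Bmx, Sox17 and Jag1 were enriched in cluster 21 without being limited to it. Bmx was at 870 CPM (Prdm16 cKO) and 624 CPM (flox control) there, against 58.1 and 119 CPM in clusters 13 and 20, and within those it was low in the capillary-like cluster 13 (14.1 and 21.0 CPM) and higher in the venous-like cluster 20 (150 and 265 CPM). Sox17 was at 172 and 140 CPM in cluster 21, against 28.7 and 39.8 CPM. Jag1 was at 364 and 445 CPM, against 86.1 and 91.1 CPM, and its level in cluster 13 (85.8 and 83.0 CPM) was no higher than in the other nuclei.

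Notch4, Notch1 and Dll4 had smaller ratios between cluster 21 and the other endothelium. Notch4 was at 58.4 CPM (Prdm16 cKO) and 99.8 CPM (flox control) in cluster 21, against 33.3 and 52.0 CPM in cluster 13 and 6.36 and 2.71 CPM in cluster 20. Notch1 was at 117 and 110 CPM in cluster 21, against 73.8 and 69.8 CPM in the other clusters, 1.58 times (1.08 to 2.28) and 1.57 times (1.20 to 2.06). Dll4 in cluster 21 (36.1 and 46.0 CPM) lay close to its level in cluster 13 (37.3 and 31.9 CPM) and above that in cluster 20 (10.6 and 2.71 CPM). Hey1 was at 22.2 and 21.3 CPM in cluster 21, against 6.15 and 8.72 CPM in the other clusters. Prdm16 stood at 898 and 1058 CPM in cluster 21, against 28.7 and 51.8 CPM in clusters 13 and 20, which put 88.5% and 90.9% of its endothelial UMIs in that cluster.

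**Figure D2:**
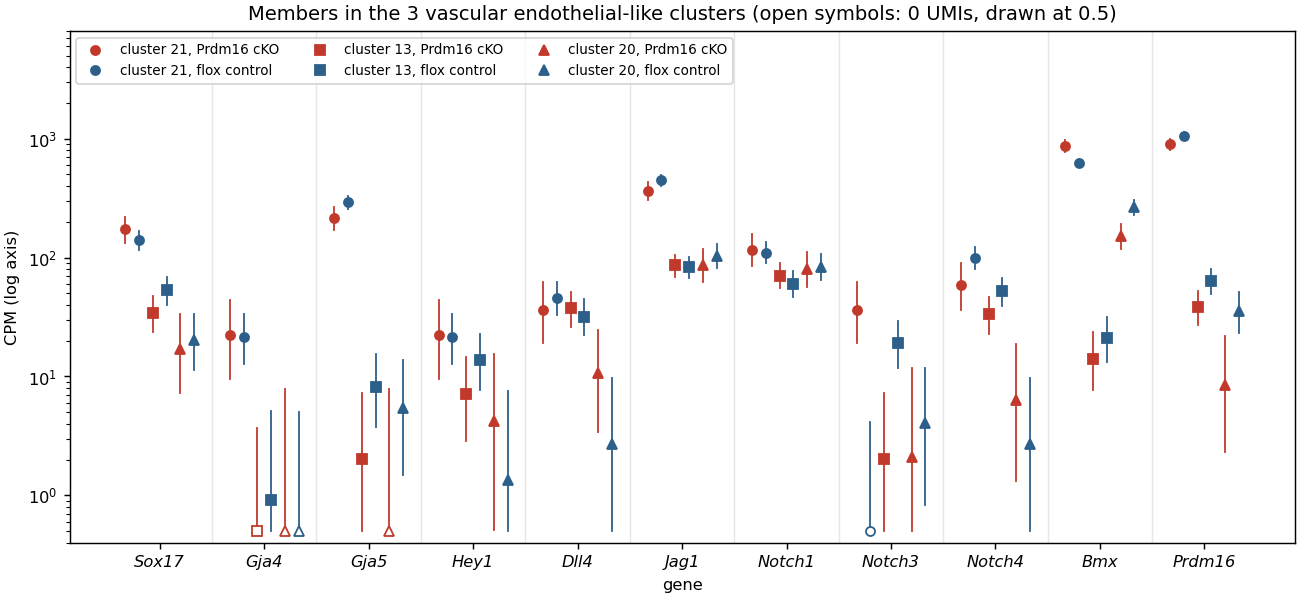
Levels of the 10 genes and Prdm16 in the arterial-like cluster 21 (circles), the capillary-like cluster 13 (squares) and the venous-like cluster 20 (triangles), in CPM on a log axis, for the Prdm16 cKO library (red) and the flox control library (blue). Bars are 95% Poisson intervals of counting error. Gja5 and Prdm16 in cluster 21 lie far above both other clusters in both libraries, while the Dll4 levels of clusters 21 and 13 lie close together, above those of cluster 20.

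Other Notch genes of the pathway lists took both directions between these clusters. Hey2, a Notch target of arteries, was at 183 CPM (Prdm16 cKO) and 118 CPM (flox control) in cluster 21, with 0 UMIs in clusters 13 and 20 of the Prdm16 cKO library and 1 and 6 UMIs in those of the flox control library. The ligand Jag2 was at 47.3 and 67.3 CPM in cluster 21, against 22.2 and 42.0 CPM in cluster 13. The receptor Notch2 was lower there, at 55.6 and 87.4 CPM, against 134 and 126 CPM in cluster 13, and so was the DNA-binding partner Rbpj, at 245 and 214 CPM, against 455 and 848 CPM in cluster 13. The protease Adam10 was at 445 and 350 CPM in cluster 21, against 173 and 220 CPM in cluster 13.

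Across 14 classes in both libraries (28 points), the gene whose log2(CPM + 1) profile was most like a given gene was Gm33206 for Sox17 (Pearson r = 0.918), Sema3g for Notch4 (0.796), Cyyr1 for Bmx (0.927), Robo4 for Hey1 (0.885) and Fhl5 for Notch3 (0.944), among 15915 genes. The nearest profile was Tmem44 for Gja5 (0.878), Fblim1 for Gja4 (0.870), Sncaip for Dll4 (0.937), Adgrl2 for Jag1 (0.891) and Arap3 for Notch1 (0.840). The points share libraries and may share free RNA, and these values are descriptions.

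Endothelial nuclei with a Prdm16 UMI carried more of the arterial genes than those without. Status was called after each nucleus was thinned to 1000 UMIs, so that depth did not set it. This gave 35 nuclei with and 240 without Prdm16 in the Prdm16 cKO library and 67 with and 370 without in the flox control library. Levels used all UMIs, and the groups were not matched in depth. Their medians with and without Prdm16 were 4164 and 4364 UMIs (Prdm16 cKO) and 8697 and 4536 UMIs (flox control). Counts were summed per library and status, and the 4 sums were fitted with edgeR's quasi-likelihood test with library as a block. Of the 10 genes, 6 were higher in nuclei with Prdm16 at a Benjamini-Hochberg adjusted p under 0.05 and 0 were lower, where 5.04% of 9500 genes tested were higher and 4.38% lower (479 and 416 genes). With median-of-ratios size factors in place of TMM the split over all genes was 374 higher and 512 lower, and the same test again called 6 of the 10 genes higher. The fit has 1 residual degree of freedom, and over 2 libraries the smallest p of an exact sign-flip test is 0.5, so the p-values lean on the spread shared across genes.

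Gja5 had the lowest adjusted p of the 10 in this fit. It was at 202 CPM in nuclei with and 24.1 CPM in nuclei without Prdm16 in the Prdm16 cKO library, and at 275 and 50.5 CPM in the flox control library. Its fitted log2 ratio was 2.76 ± 0.25 (SE, n = 2 libraries, edgeR adjusted p = 2.51e-06). That ratio depended on how status was called, at 3.70 after thinning to 2000 UMIs, 6.88 with status from all UMIs and 7.03 with at least 2 Prdm16 UMIs against 0. Bmx was at 689 and 163 CPM with and without Prdm16 in the Prdm16 cKO library and at 586 and 199 CPM in the flox control library, a log2 ratio of 1.89 ± 0.19 (edgeR adjusted p = 6.39e-06). Both genes were higher in both libraries, and the counting intervals of their ratios excluded 0. By the ratio alone, 7 of the 10 genes were 1.5 times or more higher in both libraries (these 2, Sox17, Gja4, Hey1, Jag1 and Notch4), as were 5.31% of 11387 genes.

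The ligand Jag1 and the factor Sox17 followed. Jag1 was at 316 and 120 CPM with and without Prdm16 in the Prdm16 cKO library and at 392.3 and 154 CPM in the flox control library (log2 ratio 1.47 ± 0.20, edgeR adjusted p = 0.00012). Sox17 was at 171 and 43.8 CPM in the Prdm16 cKO library and at 139 and 53.8 CPM in the flox control library (log2 ratio 1.70 ± 0.26, edgeR adjusted p = 0.000377). DESeq2 also called Gja5, Bmx, Jag1 and Sox17. Notch4 (DESeq2 adjusted p = 0.116) and Notch1 (0.967) missed the threshold there. Gja4, Hey1, Dll4 and Notch3 had no adjusted p in DESeq2, so they could not be called.

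Notch4 and Gja4 passed in edgeR, while in DESeq2 Notch4 did not pass and Gja4 had no adjusted p. Notch4 was at 57.0 and 27.8 CPM with and without Prdm16 in the Prdm16 cKO library and at 108 and 39.1 CPM in the flox control library (log2 ratio 1.44 ± 0.30, edgeR adjusted p = 0.00493). Gja4 was at 20.7 and 2.47 CPM in the Prdm16 cKO library and at 16.6 and 4.72 CPM in the flox control library, on 4 to 10 UMIs a group (log2 ratio 2.26 ± 0.52, edgeR adjusted p = 0.0111). Both kept positive ratios but missed the threshold when an adipocyte profile was subtracted from the counts, at 1.15 for Notch4 (edgeR adjusted p = 0.128) and 1.95 for Gja4 (0.206). With no filter on low counts the ratios were 1.39 (edgeR adjusted p = 0.133) and 2.21 (0.198), and Notch4 was at 1.66 (0.141) under 2% mitochondrial UMIs. Sox17 also missed the threshold with no filter, at 1.65 (edgeR adjusted p = 0.0677), and Sox17 and Jag1 did when levels were thinned as well, at 1.49 (0.354) and 1.31 (0.0874). The summed adipocyte markers differed between the groups too, at 20.9% of their adipocyte-like level with and 43.9% without Prdm16 in the Prdm16 cKO library and 17.6% with and 28.5% without in the flox control library.

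Hey1, Dll4, Notch1 and Notch3 did not pass. Their log2 ratios were 1.13 ± 0.47 for Hey1 (edgeR adjusted p = 0.171), 0.72 ± 0.38 for Dll4 (0.316), 0.38 ± 0.26 for Notch1 (0.473) and -1.88 ± 0.76 for Notch3 (0.155). Dll4 differed in sign between the libraries, at 25.9 CPM with and 30.9 CPM without Prdm16 in the Prdm16 cKO library and 46.4 and 23.6 CPM in the flox control library. Notch3 had 1 UMI with Prdm16 in each library. With no doublets removed Hey1 passed (1.59, edgeR adjusted p = 0.0197), which made 7 of the 10 genes.

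**Figure D3:**
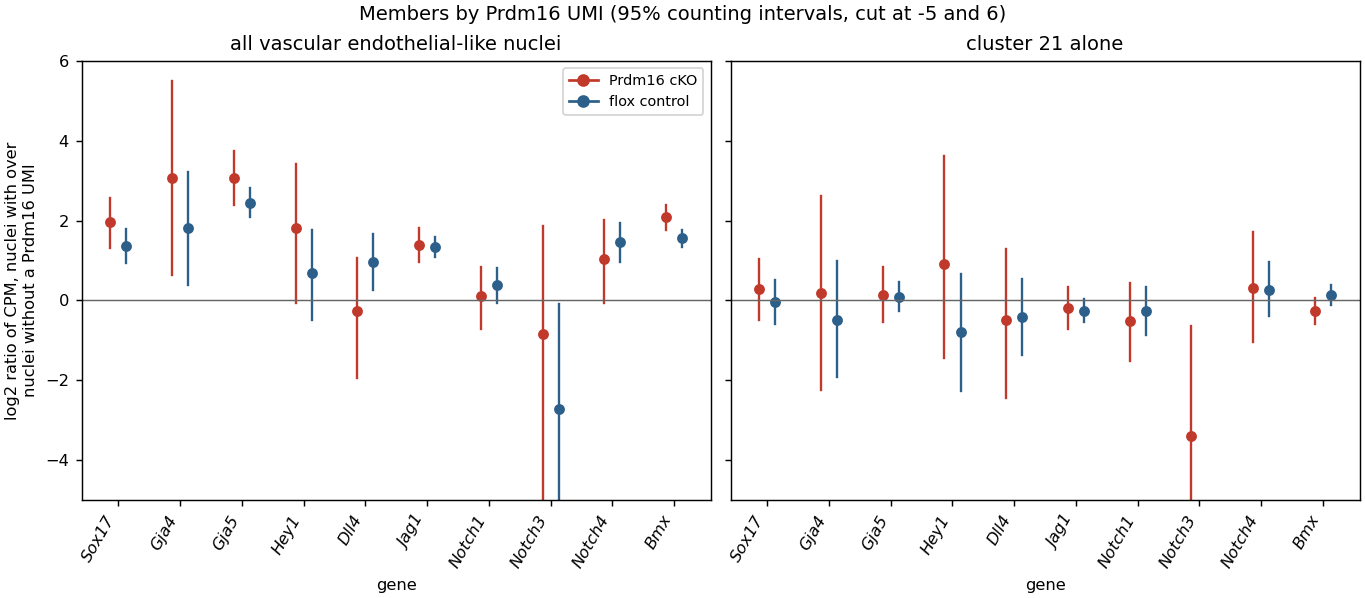
log2 ratio of CPM in nuclei with over nuclei without a Prdm16 UMI for the 10 genes, over all vascular endothelial-like nuclei (left) and in cluster 21 alone (right), in the Prdm16 cKO library (red) and the flox control library (blue), with 95% counting intervals. The intervals of Gja5, Bmx, Jag1, Sox17 and Gja4 lie above 0 in both libraries on the left, with those of Gja4 wide. On the right every interval but that of Notch3 includes 0. Notch3 had 0 UMIs in cluster 21 of the flox control library and is not drawn there.

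The nuclei with Prdm16 were mostly those of the arterial-like cluster. Cluster 21 held 25 of 35 nuclei with Prdm16 in the Prdm16 cKO library (71.4%) and 54 of 67 in the flox control library (80.6%), against 9.58% and 12.7% of the nuclei without it. Inside cluster 21, the counting intervals of the ratio between nuclei with and without a Prdm16 UMI included 0 for every one of the 10 genes in both libraries except Notch3, which had 1 and 12 UMIs in the Prdm16 cKO library and 0 in the flox control library. Gja5 was at 226 and 204 CPM with and without Prdm16 in the Prdm16 cKO library, a log2 ratio of 0.15 (-0.53 to 0.83), and at 299 and 280 CPM in the flox control library, 0.10 (-0.27 to 0.47). Bmx had a log2 ratio of -0.26 (-0.60 to 0.07) in the Prdm16 cKO library and of 0.13 (-0.12 to 0.38) in the flox control library. For Jag1 the ratios were -0.19 (-0.71 to 0.33) and -0.26 (-0.55 to 0.04). These intervals leave room for differences of moderate size, and 7 of the 10 genes had counts enough to be tested there, none past the threshold or with an unadjusted p under 0.05, where 0.0649% of 4621 genes were higher and 0.0216% lower. Prdm16 UMIs are sparse, so a nucleus without one may still carry the RNA: before thinning, 46 of 49 nuclei (Prdm16 cKO) and 98 of 101 (flox control) of cluster 21 held at least 1. In the capillary-like cluster 13, edgeR called 0 of 6955 genes by adjusted p (142 higher and 172 lower at an unadjusted p under 0.05), on 10 and 12 nuclei with Prdm16. The fitted log2 ratios there were 1.68 ± 0.51 for Bmx, 1.19 ± 0.37 for Jag1 and 1.28 ± 0.56 for Sox17 (edgeR adjusted p = 0.698 for each, unadjusted 0.0351, 0.0442 and 0.0984), against -0.06, -0.24 and 0.08 in cluster 21. The counting intervals in cluster 13 excluded 0 for Sox17, Gja5, Jag1 and Dll4 in the flox control library, on 4 to 13 UMIs in the nuclei with Prdm16, and for none of the 10 in the Prdm16 cKO library. Whether cluster 13 and cluster 21 differ in these ratios was not tested. Cluster 20 could not be fitted, since it had 0 nuclei with Prdm16 in the Prdm16 cKO library.

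The rest of the arterial list moved with the same nuclei. Of the 18 tested arterial markers outside the 10 genes, 13 were higher in nuclei with Prdm16 and 1 was lower by edgeR's adjusted p, with a median log2 ratio of 1.29, against -0.03 over all genes tested. Gkn3 (2.74 ± 0.54, edgeR adjusted p = 0.00382) and Hey2 (2.70 ± 0.29, 1.84e-05) rose most, and Eln, which encodes elastin, rose by 2.08 ± 0.17 (1.44e-06). Nrp1, a semaphorin and VEGF co-receptor also strong in capillaries, was the 1 that fell (-1.07 ± 0.18, 0.00092), and Cxcl12 did not pass (-0.51 ± 0.35, 0.484).

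Several capillary and venous markers went the other way. Of 8 capillary markers 4 fell and 0 rose: Gpihbp1, which carries lipoprotein lipase to the capillary lumen, had a log2 ratio of -3.25 ± 0.74 (edgeR adjusted p = 0.00859), and Rgcc, Cd36 and Fabp4 fell by 1.01, 1.18 and 0.90. Cd36 and Fabp4 are adipocyte genes as well, and the adipocyte markers fell in the same groups. Any part of free adipocyte RNA in those 2 values was not tested. Of 7 tested venous markers 3 fell and 1 rose. Nr2f2, the transcription factor of venous identity, was lowest at -3.81 ± 0.44 (3.31e-05), Nrp2 was at -2.43 ± 0.32 (9.53e-05) and Selp at -1.43 ± 0.42 (0.0442), while Vcam1 rose by 1.90 ± 0.23 (5.12e-05).

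Among the other Notch genes, few passed. The ligand Jag2 rose (log2 ratio 1.56 ± 0.31, edgeR adjusted p = 0.0042) and Notch2 did not pass (-0.39 ± 0.27, 0.475), while Dll1, Dlk1, Dlk2 and Dner were too low to test. Of the targets, Hey2 rose as above, Hes1 did not pass (0.25 ± 0.55, 0.865), and Hes5, Heyl, Nrarp and Dtx1 were too low to test. In the transcription complex, Rbpj (-1.06 ± 0.23, 0.00698) and Maml3 (-0.79 ± 0.21, 0.0264) fell, and Maml1, Maml2, Snw1, Kat2b and Spen did not pass, with log2 ratios between -0.83 and 0.31. Of 8 tested genes of receptor cleavage 1 rose, Adam10 (0.99 ± 0.19, 0.00351), and Aph1b, a gamma-secretase subunit, was at 1.34 ± 0.47 (0.0895). None of 10 tested genes of receptor modification and turnover passed by edgeR's adjusted p, nor had any an unadjusted p under 0.05, with the extremes at Fbxw7 (0.36) and Lfng (-0.50).

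Over all genes, those with the highest log2 ratios past the threshold were Gm44167 (3.74), Adh7 (3.54), Dkk2 (3.50), Prdm16os (3.39), Gm39822 (3.39), Gm44626 (3.35), Shisa9 (3.26) and Gm33206 (3.12). Prdm16os is named as an opposite-strand transcript of Prdm16, the gene that set the groups, and Gm44167, Adh7 and Gm39822 rested on 4 to 10 UMIs in the nuclei with Prdm16. Dkk2, a secreted Wnt inhibitor of the Dickkopf family, was at 124 CPM with and 5.55 CPM without Prdm16 in the Prdm16 cKO library and at 281 and 33.02 CPM in the flox control library. The 8 lowest, Adamts18, Esrrg, Rnf165, Fam174b, Cacna1d, Bend4, Mpp2 and Lzts1, all had 0 UMIs in nuclei with Prdm16 in both libraries. Adamts18 had 43 UMIs (Prdm16 cKO) and 94 UMIs (flox control) in the nuclei without it.

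Pairs of the genes were compared nucleus by nucleus. For each ordered pair, the level of one gene was compared between nuclei with and without a thinned UMI of the other, among the 7 genes with at least 30 UMIs in each library. Of 21 pairs, 4 were at 1.5 times or more in both orders and both libraries: Sox17 with Gja5, Gja5 with Jag1, Gja5 with Bmx, and Jag1 with Bmx. Over all genes with as many UMIs, 0.347% of 26634051 pairs met that rule. Within cluster 21, where 5 of the genes had UMIs enough and made 10 pairs, the count was 0, against 0.103% of 3113760 pairs there. Counts this sparse make the list of pairs a description only.

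Between the libraries, 2 of the 10 genes stood lower in Prdm16 cKO vascular endothelial-like nuclei past 1.5 times with a counting interval off 0, and 0 stood higher, where 4.55% of 11397 genes were lower and 8.11% higher by that rule. With 1 library per genotype there is no test of the genotype, and library and genotype cannot be told apart. Gja5 was at 43.3 CPM (34.3 to 54.0) in the Prdm16 cKO library and 100.1 CPM (88.6 to 112.8) in the flox control library, a log2 ratio of -1.21 (-1.59 to -0.84). Notch4 was at 31.3 CPM in the Prdm16 cKO library and 54.3 CPM in the flox control library, -0.80 (-1.26 to -0.35). With every nucleus thinned to 1000 UMIs the Notch4 ratio was -0.07, and with the mean CPM per nucleus -0.43, both under 1.5 times. Jag1 (-0.55, -0.77 to -0.34) and Bmx (-0.38, -0.56 to -0.21) were lower by less than 1.5 times, although Jag1 passed it with median-of-ratios size factors (-0.62) and with each library clustered on its own (-0.61). Notch1 (-0.01, -0.32 to 0.29) and Dll4 (0.08, -0.45 to 0.59) were near even, and Sox17, Hey1, Gja4 and Notch3 had intervals that included 0. Thinned to 1000 UMIs, Sox17 was at -1.16 against -0.35 before thinning and Dll4 at 0.67, and under 2% mitochondrial UMIs the Gja4 ratio was 0.67, against -0.74. Prdm16 was at 200.3 CPM in Prdm16 cKO and 381 CPM in flox control vascular endothelial-like nuclei (-0.93, -1.10 to -0.75).

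The arterial-like cluster was 17.0% of the class in the Prdm16 cKO library and 23.0% in the flox control library, with intervals that overlap, and the part of that share in these ratios was not tested. Inside cluster 21 the Gja5 ratio was -0.45 (-0.83 to -0.07), under 1.5 times, with 77 and 260 UMIs in the Prdm16 cKO and flox control libraries. Notch4 was still lower past 1.5 times, at 58.4 CPM (Prdm16 cKO) and 99.8 CPM (flox control), a log2 ratio of -0.77 (-1.53 to -0.07), where 4.13% of 6903 genes were lower and 5.4% higher. Bmx had the opposite sign there (0.48, 0.27 to 0.68), and Prdm16 differed less than over the whole class (-0.24, -0.42 to -0.05). In cluster 13, where 7.11% of 9159 genes were lower and 7.27% higher, Notch4 (-0.64, -1.31 to -0.000146) also passed, with an interval that ended next to 0. Notch3 did so too, with 2 UMIs in the Prdm16 cKO library and 21 in the flox control library, on the clumped counts described above. In cluster 20, Bmx was at 150 CPM in the Prdm16 cKO library and 265 CPM in the flox control library (-0.82, -1.23 to -0.42), where 5.17% of 7256 genes were lower and 7% higher. The adipocyte markers were at 41.3% of their adipocyte-like level in the Prdm16 cKO class and 26.1% in the flox control class, and after an adipocyte profile was subtracted the ratios were -0.89 for Gja5 and -0.48 for Notch4.

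**Figure D4:**
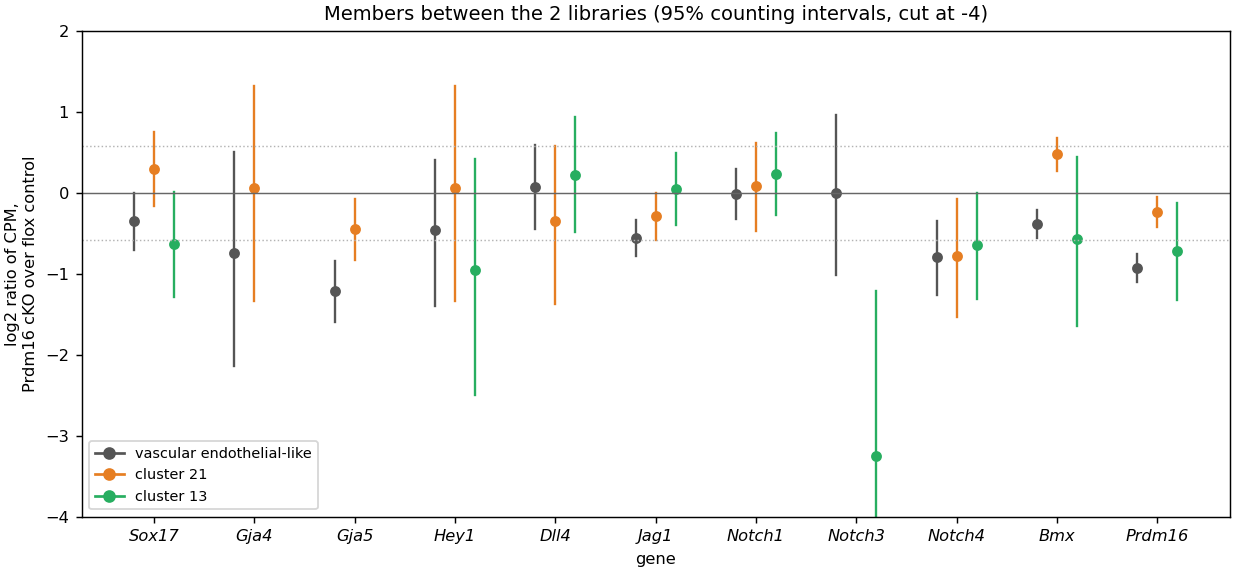
log2 ratio of CPM in the Prdm16 cKO library over the flox control library for the 10 genes and Prdm16, over all vascular endothelial-like nuclei (grey), in the arterial-like cluster 21 (orange) and in the capillary-like cluster 13 (green), with 95% counting intervals and dotted lines at 1.5 times. Genes under 20 UMIs in both libraries together are not drawn. Gja5 lies at -1.21 over the class and -0.45 in cluster 21, while Notch4 lies between -0.80 and -0.64 in all 3 sets, with an interval that nearly reaches 0 in cluster 13.

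The medians of 4 of the 5 endothelial marker lists were below 0 in Prdm16 cKO over flox control vascular endothelial-like nuclei. Of 18 arterial markers outside the 10 genes, 8 were lower past 1.5 times and 0 higher, with a median log2 ratio of -0.29, against 0.04 over all genes. The venous list had a median of -0.37 (1 of 8 lower past 1.5 times), the general vascular endothelial list -0.23 (1 of 13) and the lymphatic list -0.76 (3 of 6), while the capillary list was at 0.08 (0 of 8). Over all genes, 4.55% were lower by that rule. Fbln5, an elastic fibre protein, was at 66.4 CPM in the Prdm16 cKO library and 159 CPM in the flox control library (-1.26, -1.56 to -0.97), and Eln at 759 and 1385 CPM (-0.87, -0.96 to -0.78). Gkn3 (0.58, -0.70 to 1.86) and Unc5b (0.55, -0.01 to 1.12) had the highest ratios. Inside cluster 21, 3 of 17 were lower and 4 higher past 1.5 times, with a median of -0.05. In that cluster the venous list had a median of 0.35 (0 of 6 past 1.5 times) and the general vascular endothelial list one of -0.05 (1 of 13 lower). Of the other Notch genes, Jag2 (-0.67, -1.20 to -0.17) and Rbpj (-0.60, -0.73 to -0.47) were lower over the class and Mfng, a glycosyltransferase that modifies Notch receptors, was higher (0.62, 0.22 to 1.03).

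In mural nuclei 3 of the 10 genes had enough UMIs to be compared between libraries (Jag1, Notch1 and Notch3), and 0 of the 3 differed past 1.5 times with an interval off 0, where 10.3% of 7510 genes were higher and 7.96% lower. Notch3 was at 768 CPM in Prdm16 cKO and 770 CPM in flox control mural nuclei, a log2 ratio of -0.00 (-0.20 to 0.19). That even value hid opposite ones in its parts: Notch3 was at 853 CPM (Prdm16 cKO) and 1322 CPM (flox control) in pericyte-like nuclei, -0.63 (-0.86 to -0.40), and at 614 and 397 CPM in smooth muscle-like nuclei, 0.63 (0.27 to 0.98). The summed adipocyte markers stood at 52.7% (Prdm16 cKO) and 32.0% (flox control) of their adipocyte-like level in pericyte-like nuclei and at 37.3% and 18.1% in smooth muscle-like nuclei, and their part in the Notch3 values was not tested. Both classes were small, and by that rule 6.76% of 5248 genes were lower and 8.19% higher in pericyte-like nuclei, and 7.7% of 5167 were lower and 10.3% higher in smooth muscle-like nuclei. Jag1 in mural nuclei had a ratio of -0.07 (-0.48 to 0.33). In lymphatic endothelial-like nuclei 5 of the 10 genes could be compared (Hey1, Dll4, Jag1, Notch1 and Bmx), and 0 of the 5 passed the same rule, where 4.51% of 8665 genes were higher and 2.39% lower, and Bmx was at 137 CPM (Prdm16 cKO) and 132 CPM (flox control), a ratio of 0.06 (-0.32 to 0.43).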

How the data were processed

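The authors deposited whole-number UMI counts per gene and nucleus, not normalised, made with Cell Ranger 6.1.2 on mm10 per the submitters' processing notes. Whether intronic reads were counted is not given in the sources used here. The Prdm16 cKO library held 8086 barcodes with 70895490 UMIs and the flox control library 12060 with 108987031. The libraries list 28 barcodes in common. Nuclei with at least 500 UMIs, 300 genes and under 5% mitochondrial UMIs were kept (217 and 449 removed in the Prdm16 cKO and flox control libraries). Scrublet's own threshold marked 0% and 0.00861%, so the top scores were removed at 0.8% per 1000 nuclei (495 and 1079). Both libraries were clustered together (scanpy 1.11.5, leidenalg 0.10.2, 2000 variable genes, 30 components, 20 neighbours, resolution 1) into 28 clusters, named "-like" from 20 marker sets where at least 3 markers passed. A cluster stayed unnamed where another set had more markers than its own among its 10 leading genes (cluster 19, by the Schwann marker Ncam2) or where its median UMIs were low and none of its own markers was among them. Rebuilt names may differ from those of the authors.

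Counts were summed per library and class. Intervals are exact Poisson for levels and exact conditional binomial for ratios. A ratio between libraries was called at 1.5 times with its interval off 0, among genes with at least 20 UMIs. Nuclei with and without Prdm16 were compared with edgeR 4.0.16 (R 4.3.3; TMM, filterByExpr) on 4 sums, Benjamini-Hochberg over all genes, Prdm16 left out, and DESeq2 1.42.0 as an alternative. The edgeR fit and the counting intervals were run on simulated summed counts, with outcomes not given here. Those simulations did not sort nuclei by a sparse gene, so they do not cover that step. The 10 genes and all lists were chosen with earlier results of these data known. Beyond the 10 genes and Prdm16, the text names for each gene its nearest profile, the 8 highest and 8 lowest called genes by Prdm16 status with 1 direction in both libraries, the 2 highest and 2 lowest genes of each pathway list and every gene of lists of up to 7; further list genes were named after their values were seen. Nothing says that nuclei of a library came from separate animals, so p-values measure no spread between animals. They rest on how far the ratio by Prdm16 status differed between these 2 libraries and on the spread shared across genes.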

Additional observations from a re-analysis of the deposited data

Results flagged for a closer look

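Bmx was present in a cluster that carries no class name. Cluster 19 held 80 nuclei in the Prdm16 cKO library and 140 in the flox control library and stayed unnamed by the naming rule. It passed 10 of 13 vascular endothelial markers and, against the other endothelial clusters, 6 of 8 lymphatic markers, Prox1 among them. Bmx stood there at 236 CPM (Prdm16 cKO) and 388 CPM (flox control), above the 218 and 285 CPM of the vascular endothelial-like class. The nuclei outside the endothelial-like and mural classes, which include cluster 19, were at 4.82 and 8.08 CPM. These values are given because the nuclei of cluster 19 belong to no named class compared above. Sox17 had 2 and 0 UMIs in cluster 19 and Gja5 1 UMI in each library. Gja4 was present there, with 10 UMIs (Prdm16 cKO) and 5 UMIs (flox control), 42.3 and 13.4 times the other nuclei. The whole vascular endothelial-like class had 8 and 20 Gja4 UMIs. Notch1 in cluster 19 was at 2.11 and 2.62 times the other nuclei. Leaving cluster 19 out of the other nuclei, chosen after seeing the data, kept the counts at 9 of 10 genes for the vascular endothelial-like class and 3 of 10 for the mural nuclei. The cause was not tested.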

How the results depend on the processing

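The count of genes at 2 times or more in the vascular endothelial-like class lay between 8 and 9 over 12 alternatives, and the mural count between 2 and 5, with 5 when no doublets were removed. The 6 genes higher with Prdm16 became 7 with no doublets removed (Hey1 added), 3 with no filter on low counts, 2 with status and levels both thinned, 0 within cluster 13 (log2 ratios of 1.68 for Bmx, 1.19 for Jag1 and 1.28 for Sox17) and 0 within cluster 21 (-0.058, -0.24 and 0.077), where fewer nuclei enter. Only Gja5, Bmx, Jag1 and Sox17 passed with the adipocyte profile subtracted, under 2% mitochondrial UMIs and in DESeq2. By the counting rule of 1.5 times, with no test, 5 to 7 genes were higher in 1 library alone. The share of all genes that met this rule in 1 library is not given here, so that count has no background to be read against. Over all genes, edgeR called 479 higher and 416 lower, against 81 and 28 with no filter, 78 and 15 under 2% mitochondrial UMIs, 49 and 14 with thinned levels, 155 and 161 with the adipocyte profile subtracted, 717 and 626 with no doublets removed, 357 and 237 when thinning was drawn again (chosen after seeing the data) and 208 and 135 in DESeq2. The 2 genes past 1.5 times between libraries in vascular endothelial-like nuclei became 1 with the mean CPM per nucleus, 1 with the adipocyte profile subtracted, 3 with median-of-ratios size factors, 3 when the libraries were clustered apart and 4 under 2% mitochondrial UMIs. The 0 in mural nuclei, here over all 10 genes with no minimum of UMIs, became 3 with the mean CPM per nucleus, 1 with the profile subtracted, 1 with no doublets removed and 2 with each library clustered on its own. The 4 pairs became 8 with status from all UMIs and 0 within cluster 21 (also chosen after seeing the data). The cause of these changes was not tested.

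Of single-gene ratios, 245 kept side and direction or stayed within the interval, 16 lost a call, 1 gained one, 9 moved past the interval and 10, all by Prdm16 status, changed sign. Between libraries, ratios not called also crossed 0: Gja4 (-0.74) was at 0.46 with the mean CPM per nucleus and 0.67 under 2% mitochondrial UMIs, and Dll4, Notch1 and Notch3, all near 0, ran between -0.0017 and 0.67, -0.078 and 0.26, and -0.99 and 0.67. Sox17 (-0.35) was at -1.16 with thinned nuclei. With status from all UMIs and with at least 2 Prdm16 UMIs, the log2 ratios by Prdm16 status were 6.88 and 7.03 for Gja5, 7.32 and 7.43 for Gja4, 2.62 and 2.78 for Bmx and 2.10 and 2.20 for Jag1. At 2000 UMIs Gja5 was at 3.70 and Gja4 at 4.03, under 2% mitochondrial UMIs Gja5 was at 3.64 and Hey1 at 2.03, and with thinning drawn again Gja4 was at 3.12. Notch3 by Prdm16 status turned to 0.068 with status from all UMIs, 0.69 at 2000 UMIs, 0.18 with at least 2 Prdm16 UMIs and 1.19 when thinning was drawn again. Notch1 turned to -0.0064 with thinned levels, -0.25 within cluster 13 and -0.36 within cluster 21, and Dll4, Jag1 and Bmx to -0.44, -0.24 and -0.058 within cluster 21. Between genotypes, no paired analysis was possible because each has 1 library, while the comparison by Prdm16 status is paired within each library, and without that block 285 genes were higher and 166 lower. Depth limits Gja4, Hey1 and Notch3 in endothelium most, with 8 to 35 UMIs a library.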
